A study of Rattus norvegicus with 8 samples.

Results

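Among single nuclei of rat nodose ganglia, those carrying transcripts of Tafa4 together with Esr1, Crhr2, Gpc3 or Sez6l were examined. A nucleus was a member if it held at least 1 unique molecular identifier (UMI, 1 counted transcript) of Tafa4, at least 1 UMI each of 2 or more of the 4 further genes, and 0 UMIs of Itm2a and S1pr3. Of 36741 nuclei in the matrix 786 met this rule, and 785 of the 36738 nuclei kept for analysis did so (2.14%). The ganglia came from experimentally naive Long Evans rats of 8 weeks, 18 male and 18 female. Each of 12 pools combined the ganglia of 1 side from 6 rats, which gave 3 pools for each sex and side: male left (ML1 to ML3), male right (MR1 to MR3), female left (FL1 to FL3) and female right (FR1 to FR3). No group received a treatment or carried an engineered allele. With these numbers the left and right pools of a sex drew on the same rats, and the 8 sublibraries each held nuclei of all pools.

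The nodose ganglion holds the cell bodies of vagal sensory neurons, which carry mechanical, chemical and hormonal signals from the gut, heart, lungs and airways to the brainstem. Tafa4 encodes a secreted chemokine-like peptide best known from unmyelinated low-threshold touch neurons of the skin. Esr1 encodes estrogen receptor alpha, a nuclear receptor that acts as a transcription factor. Crhr2 encodes a receptor for urocortins, peptides of the corticotropin-releasing hormone family. Gpc3 encodes a glypican, a proteoglycan of the cell surface, and Sez6l a transmembrane protein of neurons. Itm2a, a membrane protein gene, and S1pr3, a sphingosine-1-phosphate receptor gene, led another neuron cluster of these nuclei that also carried Tafa4.

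In 2 pools the Y-linked genes went against the label. The summed level of Kdm5d and Eif2s3y over all nuclei, in CPM (UMI counts scaled to the same total in every pool), was 2.13 in ML1 and 87.9 in FL1. The remaining pools labelled male had 83.5 to 90.7 CPM, and the remaining pools labelled female 1.51 to 3.12 CPM. Labels were kept as given, sexes are called male-labelled and female-labelled, and several results are given with and without ML1 and FL1. Members numbered 36 (FR1) to 128 (FR3) per pool, with 162972 to 537365 UMIs summed per pool, so that 1 UMI stood for 1.86 to 6.14 CPM. No nucleus name was repeated, but 1865 of 34798 combinations of barcoding wells were found in more than 1 sublibrary, 88 members among them.

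Members were chosen by the measured UMIs of these 7 genes, so the levels of the rule's genes describe the choice. Of the 785 members 217 held 1 UMI of Tafa4, 98 held 2 and 470 held 3 or more. Gpc3 was detected in 84.8% of them, Esr1 in 59.6%, Crhr2 in 58.1% and Sez6l in 47.6%. Exactly 2 of the 4 further genes were found in 477 members, 3 in 222 and 4 in 86. The most frequent pair without a further gene was Esr1 with Gpc3 (168 members), followed by Crhr2 with Gpc3 (123 members). Esr1 with Crhr2 alone accounted for 38 members. Just outside the rule lay 834 nuclei with Tafa4 and 1 further gene, 1199 with Tafa4 and none, and 1133 with 2 or more further genes but no Tafa4. A further 1767 nuclei met every condition except that they held a UMI of Itm2a or S1pr3. These left-out nuclei were deeper, with a median of 6624 UMIs against 3493 in members, and the exclusion by any UMI removes deep nuclei more often than shallow ones.

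Clustering of all nuclei placed 756 members (96.3%) in the 24 of 29 clusters that showed neuron markers, which held 27477 nuclei in all. A single cluster of 2558 nuclei, led by Tafa4, Esr1, Crhr2, Gpc3, Sez6l, Kcnk13, Cdon and Nos1ap, held 540 members (68.8%). It is called here the Tafa4 Esr1 Crhr2 cluster. Members made up 21.1% of it, and 571 of its nuclei were left out for Itm2a or S1pr3. The remaining 245 members were spread over many clusters, with 39 in a cluster led by Itgae, Gpr65 and Ntsr1, 34 in the cluster led by Itm2a, Sez6l, Tafa4 and S1pr3, 27 in one led by Gdpd4 and Itgae, and 24 in one led by Hunk and Lpar3. A satellite glia-like cluster held 21.

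**Figure D1:**
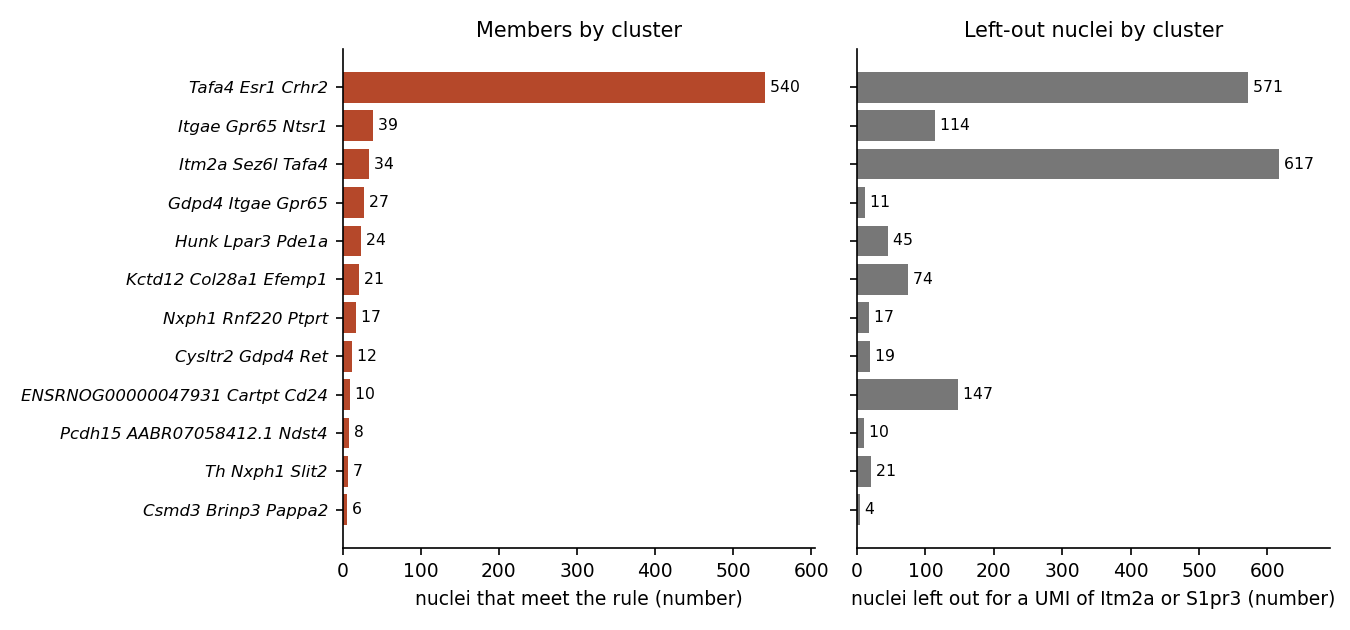
Number of nuclei (horizontal axis) in each of the 12 clusters with the most members, named by leading genes. Left bars count the nuclei that meet the rule and right bars those left out for a UMI of Itm2a or S1pr3; 540 members fall in 1 cluster, whereas the left-out nuclei are shared by the first cluster (571) and the one led by Itm2a (617).

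Members outside the Tafa4 Esr1 Crhr2 cluster differed from those inside in depth and in the rule's own genes. Their median depth was 5223 UMIs, against 3092 inside. A single UMI of Tafa4 made 139 of the 245 (56.7%) members, against 78 of the 540 inside (14.4%). The median number of Tafa4 UMIs was 1 outside and 5 inside. Calling the members 1 class of neurons therefore rests mainly on the nuclei inside the cluster, and values are given for both. Of the 245 members outside, 216 (88.2%) still lay in neuron clusters.

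Markers of nodose and jugular neurons did not separate the members from other neurons. The 6 nodose markers summed to 226 ± 39.9 CPM in members and 247 ± 39.5 CPM in other neurons, and none of the 4 at 20 CPM differed by 1.5-fold in all pools (median log2 ratio -0.09, 1 marker at 0). The 5 jugular markers summed to 142 ± 25.8 and 123 ± 20.7 CPM, and the 1 at 20 CPM had a log2 ratio of 0.30. None of 12 neuron markers was 1.5-fold higher or lower than in the other 26721 neurons in all 12 pools. These other neurons are all nuclei of neuron clusters that were no members. They include 2018 nuclei of the Tafa4 Esr1 Crhr2 cluster and 1653 left-out nuclei, some of them in both, which lessens any contrast with members. P2rx2, an ATP-gated channel of nodose neurons, was at 77.9 ± 14.2 CPM in members and 95.3 ± 19.1 CPM in other neurons (SD, n = 12 pools). Marker sums of other cell types overlapped between members and other neurons: 7 satellite glia genes summed to 60.5 to 393 CPM in members and 148 to 262 CPM in other neurons, and 6 skeletal muscle genes to 113 to 1366 and 127 to 1861 CPM. The 7 satellite glia genes had a mean sum of 172 CPM in members and 192 CPM in other neurons. Fabp7 alone was near 0 in members (1.54 CPM), but it was not among the leading genes of the satellite glia-like clusters, which included Apoe and Kcnj10. No glial, fibroblast, vascular or muscle marker at 20 CPM was 1.5-fold higher or lower in all pools.

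Levels in members against other neurons are a description without a test, since measured genes chose the members. Of 6943 genes with a mean of at least 20 CPM in either group, 124 (1.79%) were higher in members by at least 1.5-fold on average and in the same direction in all 12 pools, and 262 (3.77%) were lower. At 2-fold these numbers were 26 (0.374%) and 102 (1.47%). All 12 member values lay above all 12 values of other neurons for 137 genes (1.97%) and below them for 102 (1.47%). The median log2 ratio over the 6943 genes was -0.04, with 5 CPM added to both sides of each ratio.

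The 20 highest genes outside the rule are given by role, which is no statement on a gene group. Cacnb2, a beta subunit of voltage-gated calcium channels, was at 172 to 532 CPM in members (median 327) and 71.4 to 125 CPM in other neurons (median 95.7). Its log2 ratio was 1.66, the highest outside the rule, and the pools of the groups did not overlap. Fgf14, an intracellular partner of voltage-gated sodium channels, was at 2483 to 3692 CPM in members (median 2649) and 1140 to 1440 CPM in other neurons (log2 ratio 1.21). Trpc4, a receptor-operated cation channel, was at 515 ± 69.6 CPM against 248 ± 24.3 CPM, and Kcnk13, a potassium leak channel, at 40.8 ± 17.04 against 17.6 ± 2.89 CPM (SD, n = 12 pools). Member pools did not overlap other neurons for Fgf14 and Trpc4, and they did for Kcnk13.

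Pcdh9, a protocadherin that joins neurons, was at 2257 to 3689 CPM in members (median 3122) and 1153 to 1452 CPM in other neurons (median 1301), a log2 ratio of 1.22 without overlap. Col4a1, a basement membrane collagen, was at 936 ± 126 against 440 ± 33.2 CPM. Itga2, the alpha subunit of a collagen-binding integrin, was at 286 ± 62.6 against 127 ± 15.3 CPM. Epb41l2, which ties membrane proteins to the actin cytoskeleton, was at 593 ± 116 against 236 ± 15.3 CPM. Adamts19, a secreted metalloproteinase, was low in both (31.2 against 11.4 CPM).

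Slc35f4, a transporter-like protein (319 ± 71.1 against 111 ± 9.13 CPM), and Slc44a5, a choline transporter-like protein (253 ± 74.1 against 106 ± 13.1 CPM), were both higher in all 12 pools. Lgr5, a receptor for R-spondins, was at 309 ± 66.9 against 135 ± 11.9 CPM. A UMI of Lgr5 was found in 59.5% of members and in 58.5% of nuclei of the myelinating Schwann cell-like cluster. With nuclei thinned to 1500 UMIs these shares were 35.7% and 53.9%, and that of other neurons was 14.7%. The part of RNA from other cell types in the Lgr5 level was not tested. The transcription factors Tcf4 (912 ± 87.4 against 423 ± 24.4 CPM) and Sox5 (149 ± 35.7 against 65.8 ± 5.75 CPM) were also among the highest genes. Nos1ap, an adaptor of neuronal nitric oxide synthase, was at 346 ± 45.2 against 170 ± 19.5 CPM, and Rasgef1b, an exchange factor for Ras-like GTPases, at 281 ± 78.5 against 137 ± 15.0 CPM. The remaining genes, Fstl4, Arhgap42, Filip1 and Ca8, had log2 ratios of 1.02 to 1.199.

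Among the 10 genes lowest in members were channel, adhesion, transcription factor and neuropeptide genes. Asic2, a subunit of acid-sensing channels, was at 305 to 1286 CPM in members (median 642) and 2171 to 3172 CPM in other neurons (median 2731), a log2 ratio of -1.90. Kirrel3, an adhesion protein of the immunoglobulin superfamily, was at 200 to 796 CPM in members (median 387) against 1343 to 1596 CPM. The groups overlapped for neither gene. St18, a zinc-finger transcription factor, had the lowest log2 ratio, -2.35 (12.8 ± 11.3 against 85.2 ± 19.5 CPM). Tac1, the gene of substance P, was at 4.81 ± 4.83 against 28.5 ± 19.7 CPM. Adamts16, Tmem233, Stac, Otof, Grm8 and Ankrd24 had log2 ratios of -2.31 to -1.71.

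**Figure D2:**
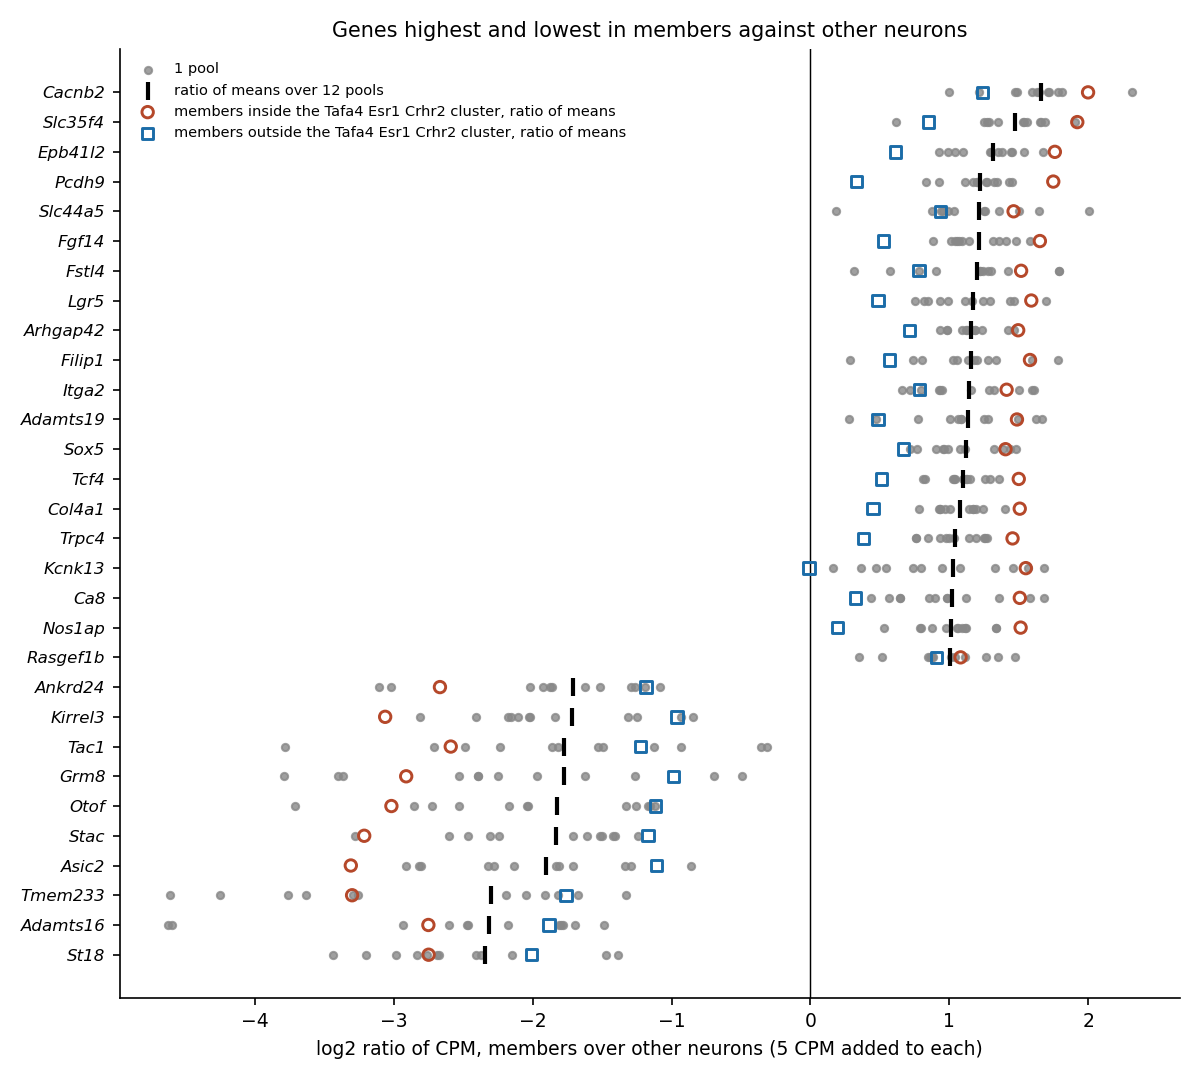
Log2 ratio of CPM in members over other neurons (horizontal axis, 5 CPM added to both) for the 20 highest and 10 lowest genes outside the rule. Grey points are the 12 pools, bars the ratio of the means, red circles members inside and blue squares members outside the Tafa4 Esr1 Crhr2 cluster; the circles lie farther from 0 than the squares for each gene drawn, and the square of Kcnk13 lies at -0.01.

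Most of these differences were larger in members inside the Tafa4 Esr1 Crhr2 cluster. Of the 20 highest genes, 13 were higher inside than outside in all 12 pools, and of the 10 lowest 3 were lower inside in all 12. Pcdh9 was at 4384 ± 377 CPM inside and 1638 ± 373 CPM outside (SD, n = 12 pools), and Fgf14 at 3966 ± 316 and 1818 ± 454 CPM. Kcnk13 was at 61.0 CPM inside and 17.4 CPM outside, the level of other neurons. Rasgef1b was at 296 ± 83.4 CPM inside and 261 ± 80.1 CPM outside, and Cacnb2 at 405 ± 125 and 237 ± 99.7 CPM, so that the mean of both was above that of other neurons outside the cluster too. Asic2 was at 267 ± 77.3 CPM inside and 1245 ± 559 CPM outside, and Kirrel3 at 173 ± 74.7 and 757 ± 351 CPM, which are among those 3. In the 2018 cluster nuclei that were no members, 18 of the 20 highest and 10 of the 10 lowest genes passed 2-fold against neurons outside the cluster. The genes were picked in members, most of which lie in this cluster, and the cluster was formed from the same data. The counts in this paragraph are thus tied to the choice and are no separate support. No share over all genes stands beside them.

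Left-out nuclei with Itm2a or S1pr3 shared much of the pattern. Only 4 of the 20 highest genes were 1.5-fold higher in members than in them. Cacnb2 was at 319 ± 95.1 CPM in members and 209 ± 49.7 CPM in left-out nuclei, higher in all 12 pools, and Fgf14 at 2930 ± 453 and 2317 ± 154 CPM. Itga2 went the other way (286 ± 62.6 and 332 ± 40.5 CPM, higher in members in 2 of 12 pools). Trpa1, the irritant-gated channel, was at 452 ± 136 CPM in members, 759 ± 94.3 CPM in left-out nuclei and 1038 CPM in the Itm2a-led cluster, lower in members in all 12 pools. In members it was 280 to 779 CPM against 303 to 409 CPM in other neurons, so the groups overlapped. Of the left-out nuclei 617 (34.9%) lay in the Itm2a-led cluster and 571 (32.3%) in the Tafa4 Esr1 Crhr2 cluster.

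Nuclei that hold Tafa4 and neither Itm2a nor S1pr3 were also described by the number of further genes detected. The cluster was formed from these same genes among others, so that its share is tied to their number by construction. From 0 to 4 of these genes the share of nuclei in the Tafa4 Esr1 Crhr2 cluster was 12.7%, 38.7%, 60.8%, 77.5% and 90.7%. Fgf14 was at 1261, 1893, 2539, 3577 and 3371 CPM, and Trpa1 at 150, 231, 360, 603 and 537 CPM. Asic2 was at 2312, 1581, 858, 668 and 203 CPM, and Piezo2, the mechanically gated channel of touch neurons, at 733, 267, 176, 103 and 32.7 CPM. Members with 2 further genes, just inside the rule, therefore lay between those with 3 and the nuclei with 1, just outside it, for each of these 4 channel-related genes. Median depth increased in the same order, from 2393 UMIs with 0 to 4219 UMIs with 4 further genes, and its part in the order was not tested.

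**Figure D3:**
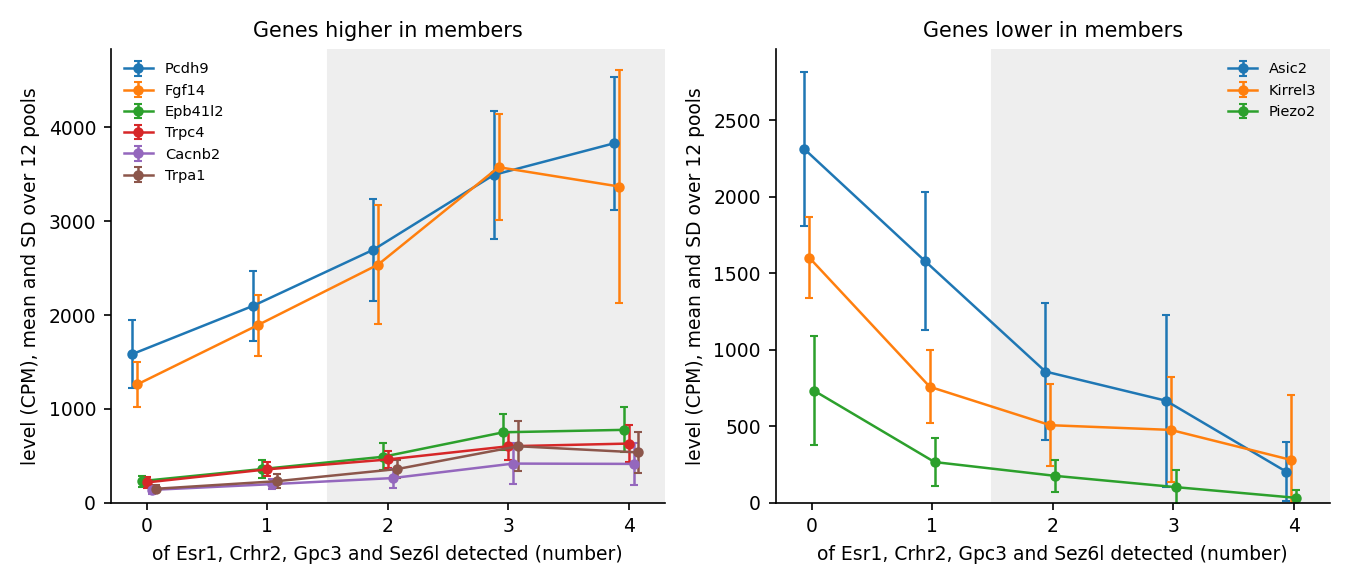
Level in CPM (vertical axis, mean and SD over 12 pools) by the number of Esr1, Crhr2, Gpc3 and Sez6l detected (horizontal axis) in nuclei with Tafa4 and without Itm2a or S1pr3; the grey area holds the members. Pcdh9, Fgf14, Epb41l2, Trpc4, Cacnb2 and Trpa1 are higher with 3 or 4 further genes than with 0 or 1, and Asic2, Kirrel3 and Piezo2 are lower.

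Gene families of the sensory neuron were read for the members by the same description, as the number of genes at 20 CPM that differed by 1.5-fold in all pools. Over all 6943 genes 1.79% were higher and 3.77% lower by this measure. The lists are short, so their counts are no test of a family. Among serotonin receptors 2 of 3 were higher, the subunits of the excitatory serotonin-gated channel: Htr3a (183 ± 38.4 against 118 ± 21.1 CPM) and Htr3b (402 ± 64.4 against 222 ± 24.3 CPM). Their list had a median log2 ratio of 0.62, beside -0.04 over all genes. Member pools lay above those of other neurons without overlap for Htr3b and overlapped for Htr3a, and left-out nuclei had 262 and 405 CPM. Among 10 TRP channels only Trpc4 passed, while Trpm3, a channel gated by heat and steroids, was at 3200 ± 529 against 2508 ± 181 CPM. Of 9 mechanosensitive channels 2 were lower, Asic2 and Tmc3 (203 ± 48.6 against 340 ± 44.7 CPM), and none was higher (median log2 ratio -0.73).

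Piezo2 itself fell short of the description because 1 pool went the other way. It was at 27.7 to 249 CPM in members (median 155) and 204 to 454 CPM in other neurons (median 314). Inside the Tafa4 Esr1 Crhr2 cluster it was at 29.8 ± 17.2 CPM and outside at 261 ± 170 CPM (SD, n = 12 pools), lower inside in all 12 pools. Of the genes that accompany Tafa4 in skin touch neurons, 0 of 6 at 20 CPM were higher in members and 1 was lower, Zfp521, a zinc-finger regulator (49.3 ± 24.1 against 102 ± 15.5 CPM). Slc17a8, the vesicular glutamate transporter of those neurons, was at 0.671 CPM, below 1 UMI per pool on average.

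Several hormone receptor and neuropeptide genes were lower in members, beside 3.77% of all 6943 genes. Many of their levels were near the 1.86 to 6.14 CPM that 1 UMI stood for. Of 3 gut hormone and feeding peptide receptors at 20 CPM, 2 were lower in members: Glp1r, the receptor of glucagon-like peptide 1 (9.30 ± 8.54 against 30.8 ± 6.55 CPM), and Cckar, the cholecystokinin receptor of the gut vagus (5.86 ± 5.29 against 28.8 ± 8.74 CPM). Of 4 sensory neuropeptides 2 were lower, Tac1 and Adcyap1, the gene of PACAP (21.1 ± 10.6 against 46.8 ± 8.69 CPM). Among 4 steroid hormone receptors Esr1 alone was higher, by the choice of members. Nr3c1, the glucocorticoid receptor, was at 83.6 ± 26.3 against 86.1 ± 5.49 CPM, and the groups overlapped. Within the corticotropin-releasing hormone family 5 of 7 genes had 0 UMIs in members, and Crhr2 alone reached 20 CPM.

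Among synaptic receptors, of 6 GABA receptor subunits 3 were lower (list median log2 ratio -1.05), among them Gabra2 (21.9 ± 14.8 against 58.2 ± 18.8 CPM) and Gabbr2, a subunit of the metabotropic receptor (107 ± 42.5 against 226 ± 66.1 CPM). Of 11 ionotropic glutamate receptors 2 were lower (list median -0.03, beside -0.04 over all genes), among them the kainate receptor subunit Grik1 (333 ± 133 against 689 ± 127 CPM). Chrm2, a muscarinic receptor (25.1 ± 15.7 against 77.4 ± 10.6 CPM), and Ptger3, a prostaglandin receptor (28.6 ± 10.5 against 59.0 ± 6.74 CPM), were each the lower gene of their list. Of 13 voltage-gated calcium channel subunits only Cacnb2 was higher. Over all 6943 genes 1.79% were higher and 3.77% lower by the same measure. Relatives of the rule's genes included 2 lower ones, Tafa1 (13.9 ± 14.6 against 51.5 ± 31.1 CPM) and the glypican Gpc5 (205 ± 64.7 against 612 ± 90.9 CPM). In 13 lists of markers of other vagal neuron classes no gene was higher, and 8 of these lists had at least 1 lower gene, with all 3 of Col27a1, Kirrel3 and Fhip1a lower. Other neurons contain nuclei of those classes, so lower levels of their markers follow in part from the comparison.

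Whether the members were equally frequent on both sides and in both sexes was tested over pools. Their share of all nuclei was 1.91 to 2.82% in left pools (mean 2.402% ± 0.366) and 1.23 to 2.64% in right pools (mean 1.92% ± 0.525, SD, n = 6 each). The sides overlapped, with a difference of -0.485 percentage points (two-sided exact permutation within sexes p = 0.115, adjusted p = 0.45 over 4 share tests, smallest possible p 0.005). As a share of neurons they were 2.93% ± 0.441 in left pools and 2.53% ± 0.567 in right pools (exact permutation p = 0.225, adjusted p = 0.45). By labelled sex the shares of all nuclei were 2.16% ± 0.584 (male) and 2.15% ± 0.458 (female) (exact permutation p = 0.99, adjusted p = 0.99), and those of neurons 2.73% ± 0.675 and 2.73% ± 0.396 (p = 0.985 by exact permutation). MR1 was lowest (37 of 3013 nuclei, 95% exact binomial interval 0.866 to 1.69%), and ML2 highest (66 of 2337, 2.19 to 3.58%). These intervals cover counting error only. Between the 8 sublibraries the share was 1.87 to 2.37%.

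The side difference in the share of all nuclei varied with depth and with the set of nuclei counted. When each nucleus was thinned to 3000 UMIs, the share was 3.48% on the left and 2.39% on the right (exact permutation p = 0.03), after 7445 left and 12856 right nuclei had been left out as too shallow. Among neurons it was 3.97% and 2.94% at this depth (exact permutation p = 0.055). At 1500 UMIs the share of all nuclei was 1.83% and 1.64% (exact permutation p = 0.40). For the share of members among all nuclei, by side, the difference without the exclusion by Itm2a and S1pr3 was -2.42 percentage points (exact permutation p = 0.015). The Tafa4 Esr1 Crhr2 cluster, formed without the rule's thresholds, made up 8.65% ± 1.54 of the neurons of left pools and 9.44% ± 1.72 of those of right pools (exact permutation p = 0.42). Median depth per member was 3763 ± 731 UMIs in left and 3416 ± 579 UMIs in right pools (exact permutation p = 0.205). It was 3131 ± 509 UMIs in pools labelled male against 4048 ± 421 UMIs in those labelled female (exact permutation p = 0.015, SD over 6 pools). Other neurons differed in the same direction by labelled sex (2680 ± 450 and 3457 ± 428 UMIs, exact permutation p = 0.015).

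**Figure D4:**
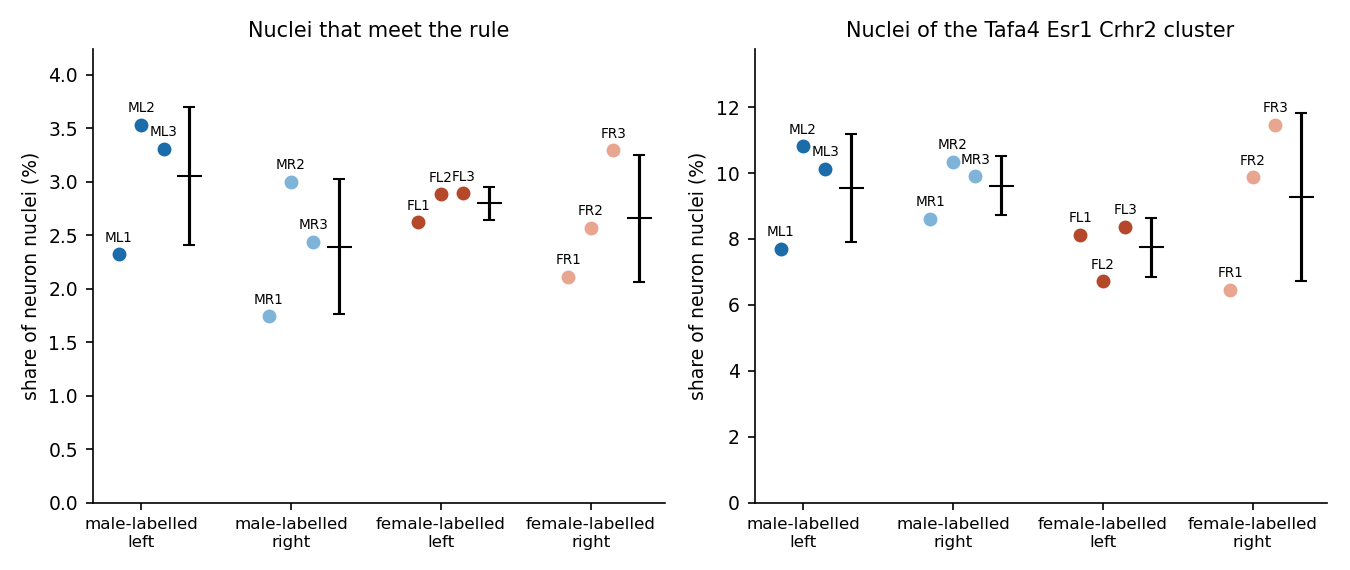
Share of neuron nuclei in percent (vertical axis) that meet the rule (left panel) or belong to the Tafa4 Esr1 Crhr2 cluster (right panel), 1 point per pool, with the mean and SD of the 3 pools of each labelled sex and side. Points of the groups overlap in both panels, with members at 1.74% (MR1) to 3.53% (ML2) of neurons.

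The share of members that lay inside the Tafa4 Esr1 Crhr2 cluster varied from 47.6% in FL2 to 77.3% in ML2. Left pools had 63.8% ± 10.5 and right pools 70.9% ± 5.14 (exact permutation p = 0.165, SD over 6 pools). Pools labelled male had 70.4% ± 5.37 and those labelled female 64.3% ± 10.7 (exact permutation p = 0.23). Values inside the cluster are therefore given beside the comparisons of genes by side and sex.

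Gene expression of the members was compared by side on UMIs summed per pool (edgeR quasi-likelihood test with labelled sex as covariate, Benjamini-Hochberg adjustment). Of 5239 genes tested 12 were called at an adjusted p under 0.05 (0.229%). On the right 4 of them were higher and 8 lower. At an unadjusted p under 0.05 there were 412 genes. DESeq2 called 13 genes, all 12 among them, and limma-voom 14, 11 of the 12 among them. Without ML1 and FL1 3 genes were called, all among the 12. Left and right pools were fully separate for 25 of the 5239 genes (0.477%).

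Opcml, a lipid-anchored adhesion molecule of the IgLON family, had the smallest p. Its level in the left pools was 417 CPM in ML1, 239 in ML2, 355 in ML3, 424 in FL1, 593 in FL2 and 465 in FL3. In the right pools it was 116 CPM in MR1, 172 in MR2, 221 in MR3, 232 in FR1, 86.5 in FR2 and 182 in FR3. The lowest left pool, ML2, lay just above the highest right pool, FR1, and both labelled sexes showed the difference. The log2 difference, right over left, was -1.33 (SE 0.18, edgeR adjusted p = 0.00056), and Opcml was called in 26 of 26 alternatives. Inside the Tafa4 Esr1 Crhr2 cluster the members' log2 difference was -1.59, with 308 ± 245 CPM on the left and 84.2 ± 41.9 CPM on the right. Members outside it had 508 to 663 CPM in left and 102 to 427 CPM in right pools. A UMI of Opcml was found in 33.4% ± 7.49 of left and 17.4% ± 6.25 of right members (SD, n = 6 pools each; median depths 3660 and 3432 UMIs). In nuclei of the myelinating Schwann cell-like cluster it was found in 16.2% ± 3.51 and 11.8% ± 3.77 (median depths 1630 and 1564 UMIs). The share in right members was thus near that in Schwann cell-like nuclei. With nuclei thinned to 1500 UMIs left members had a share of 26.0% and right members of 10.8%. Schwann cell-like nuclei thinned alike had 12.5% on the left and 8.44% on the right. In the whole Tafa4 Esr1 Crhr2 cluster a UMI of Opcml was found in 15.4% of left and 8.05% of right nuclei. Thinned to 1500 UMIs, these shares were 10.97% and 5.21%. The whole cluster thus did not lie above Schwann cell-like nuclei on either side, unlike left members.

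Unc13c, a synaptic vesicle priming protein, was at 197 to 343 CPM in left pools (median 276) and 119 to 215 CPM in right pools (median 145). FL3 on the left lay below MR3 on the right, so the sides overlapped. Its log2 difference was -0.92 (SE 0.15, edgeR adjusted p = 0.0058). It was called in 21 of 26 alternatives and whenever 1 pool was left out, and not without ML1 and FL1 (edgeR adjusted p = 0.058).

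The calls of the other 10 genes depended on single pools. Without MR2, FL1, FL2, FR2 or FR3 alone the count fell to 2, Opcml and Unc13c. It was 3 without MR3, 4 without ML3, 5 without FR1, 6 without FL3, 12 without ML2, 21 without ML1 and 29 without MR1. Each of the 10 had an edgeR adjusted p of at most 0.204 in every fit without 1 pool.

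Shisa9, an auxiliary protein of AMPA-type glutamate receptors, was at 66.5 to 153 CPM on the left (median 98.6) and 23.3 to 71.3 CPM on the right (median 43.6), a log2 difference of -1.23 with overlap. Sorcs1, a sorting receptor for synaptic proteins, was at 105 to 259 CPM on the left (median 169) and 208 to 446 CPM on the right (median 305), a log2 difference of 0.84 with overlap. Sorcs1 is abundant in glia: 95.6% of left and 94.8% of right Schwann cell-like nuclei held a UMI of it. Kcnh8, a voltage-gated potassium channel, had a log2 difference of -0.64 (391 ± 78.4 against 247 ± 57.2 CPM).

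Cntn5, a contactin of the neuronal surface, was at 1395 to 2140 CPM on the left (median 1744) and 2299 to 2995 CPM on the right (median 2470), without overlap (log2 difference 0.52). Prkd1, protein kinase D1, was at 129 to 204 against 232 to 336 CPM, also without overlap (log2 difference 0.67). Rasgef1b was at 270 to 401 CPM on the left and 177 to 261 CPM on the right, without overlap (log2 difference -0.64), and it was also among the genes highest in members. Crtac1, a secreted matrix protein, was at 44.3 to 81.1 CPM on the left and 67.5 to 243 CPM on the right (log2 difference 1.14, with overlap). Eda, a ligand of the tumor necrosis factor family, had 224 ± 33.3 against 128 ± 38.5 CPM and Bmper, a secreted modulator of bone morphogenetic proteins, 56.1 ± 24.9 against 16.8 ± 7.13 CPM. A UMI of Eda was found in 44.8% of left and 27.4% of right members, and in 83.4% of left and 80.3% of right Schwann cell-like nuclei. A UMI of Prkd1 was found in 41.0% and 49.9% of members and in 42.0% and 44.7% of Schwann cell-like nuclei. For Cntn5 these shares were 92.0% and 94.5% in members. In Schwann cell-like nuclei they were 32.9% ± 7.05 and 42.4% ± 4.99, the same direction as in members (SD, n = 6 pools each). Markers of myelinating Schwann cells summed to a mean of 381 CPM in left and 385 CPM in right members. In members inside the Tafa4 Esr1 Crhr2 cluster these means were 348 CPM (left) and 292 CPM (right). The unnamed entry ENSRNOG00000047605 was lower on the right (log2 difference -1.12). This entry and Kcnh8 are among the leading genes of the cluster led by Gdpd4 and Itgae, which held 27 members. The part of this makeup in their side differences was not tested.

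**Figure D5:**
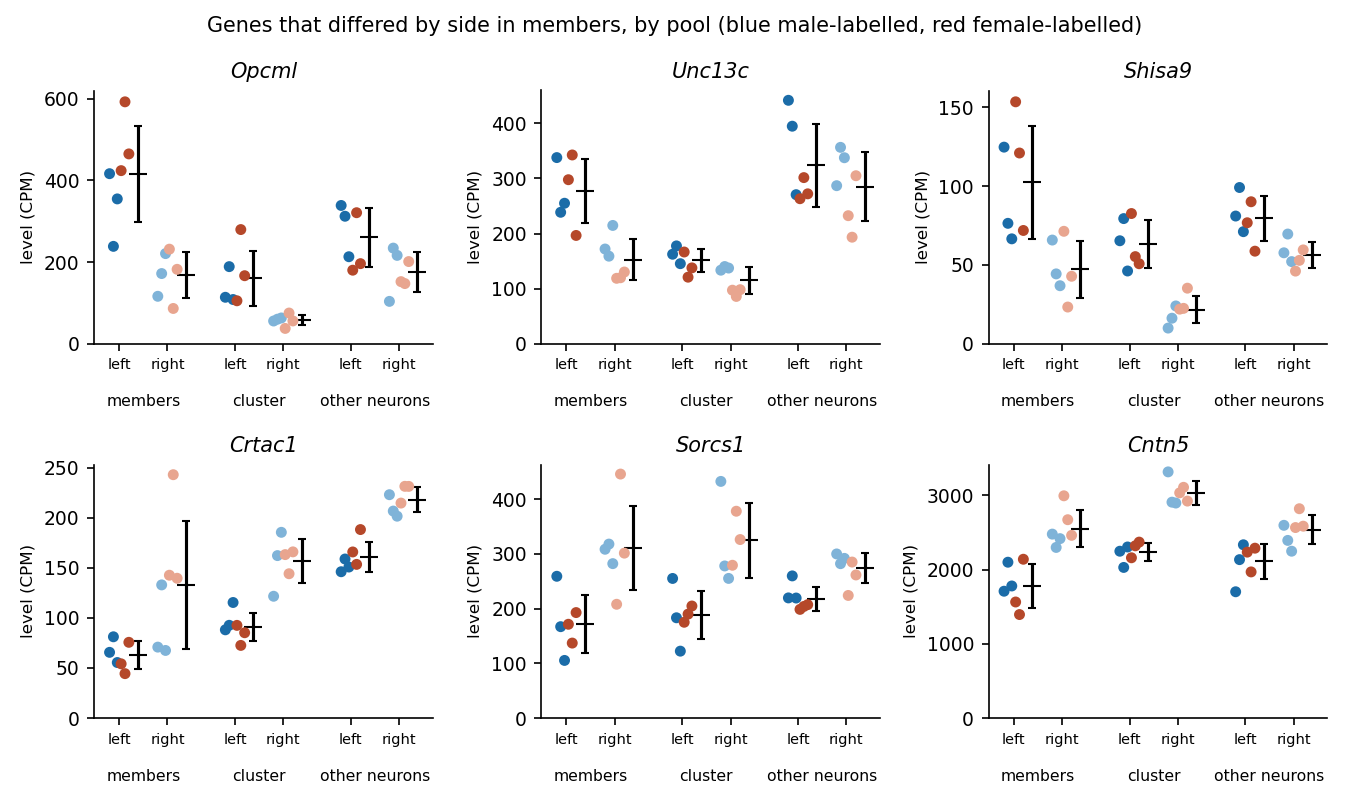
Level in CPM (vertical axis) of 6 genes that differed by side in members, 1 point per pool, in members, in all nuclei of the Tafa4 Esr1 Crhr2 cluster (cluster) and in other neurons, with the mean and SD of 6 pools per side. Other neurons include the 2018 cluster nuclei that were no members. Opcml, Unc13c and Shisa9 are lower and Crtac1, Sorcs1 and Cntn5 higher on the right in members, and the sides have no overlap in members for Opcml and Cntn5.

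Satellite glia markers summed to 60.5 to 184 CPM (mean 126) in left members and 71.3 to 393 CPM (mean 218) in right members. In members inside the Tafa4 Esr1 Crhr2 cluster the sums were 27.3 to 81.9 CPM (left) and 0 to 87.7 CPM (right). Skeletal muscle markers there summed to 81.9 to 262 CPM (left) and 121 to 1047 CPM (right). Of the 12 genes called by side in members, 11 could be tested in these nuclei and 7 were called. They were among 27 of 3007 genes called by side there (0.898%). These nuclei are part of the members, so their calls are not independent. The part of RNA from other cell types in the calls was not tested. None of the 5 genes of the rule was called by side in the members. No gene of the lists of ion channels, receptors, neuropeptides or other cell types was called either.

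Over the whole Tafa4 Esr1 Crhr2 cluster, which held more nuclei per pool, 61 of 7256 genes were called by side (0.841%, edgeR), 25 higher and 36 lower on the right, and 47 by DESeq2. Left and right pools were fully separate for 54 genes (0.744%). The members are among these nuclei, so the fits are not independent. Of the 12 genes called in members all 12 went the same way in the cluster and 10 were called there, the exceptions being Bmper and ENSRNOG00000047605. Of the 61 genes 59 could be tested in members, 57 of them went the same way and 10 were called.

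Esr1 itself was among the 61. In the cluster it was at 242 to 263 CPM in left pools (median 253) and 179 to 204 CPM in right pools (median 191). The sides did not overlap and the spread within each was small. The log2 difference was -0.41 (SE 0.08, edgeR adjusted p = 0.0013), and without ML1 and FL1 it was -0.40 (edgeR adjusted p = 0.014). In members the log2 difference of Esr1 was -0.31 and was not called (edgeR adjusted p = 0.59), where the rule had set part of its level. Other neurons, which include the 2018 nuclei of this cluster that were no members, had 44.9 ± 4.58 CPM on the left and 38.0 ± 3.62 CPM on the right. These values are therefore no separate comparison for the cluster. The side difference of the cluster did not pass a test against that of other neurons (edgeR adjusted p = 0.99).

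Crhr2 behaved alike, at 287 to 395 CPM in left and 177 to 295 CPM in right pools of the cluster (log2 difference -0.41, edgeR adjusted p = 0.0027), with overlap. Tafa4 was at 1373 ± 186 and 1194 ± 79.1 CPM and was not called (edgeR adjusted p = 0.15). Gpc3 and Sez6l had log2 differences of 0.02 and 0.13. Both called genes are among those that lead the cluster and were used in forming it.

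Further genes called in the cluster included receptors and adhesion molecules. Gria1, an AMPA receptor subunit, was at 62.4 to 83.5 CPM on the left and 19.6 to 38.0 CPM on the right without overlap (log2 difference -1.36, edgeR adjusted p = 2.56e-08). Tenm2, a teneurin of synaptic adhesion, was at 2329 ± 215 against 1701 ± 99.0 CPM (log2 difference -0.45), and Unc5d, a netrin receptor, at 291 ± 44.1 against 178 ± 20.4 CPM (log2 difference -0.68), both without overlap. Cacnb2 was lower on the right (355 ± 72.2 against 248 ± 25.7 CPM, log2 difference -0.52, edgeR adjusted p = 3.55e-05), and Asic2 was higher (361 ± 77.0 against 479 ± 25.9 CPM with overlap, log2 difference 0.44, edgeR adjusted p = 0.00026). Each of these genes kept its call without ML1 and FL1. In members Gria1, Tenm2, Unc5d and Cacnb2 had log2 differences of -0.43, -0.27, -0.64 and -0.57 and were not called, and Asic2 had -0.09, with 267 CPM inside and 1245 CPM outside the cluster as given above. Apoe, a satellite glia gene, was also called in the cluster.

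Whether a side difference was larger in members than in other neurons was tested by a class-by-side term with the pool as block (edgeR, 13420 genes). There 4 genes were called (0.0298%), and 653 had an unadjusted p under 0.05. DESeq2 called none (306 at an unadjusted p under 0.05) and limma-voom none (644), so each of the 4 calls depends on the tool. Opcml differed by -0.83 log2 units more in members than in other neurons (SE 0.14, edgeR adjusted p = 4.57e-05), where other neurons had 260 ± 71.1 CPM on the left and 176 ± 49.5 CPM on the right. It was called in every fit without 1 pool (edgeR adjusted p 3.69e-08 to 0.016) and without ML1 and FL1. It was not called with DESeq2 (log2 difference -0.78), limma-voom (-0.85) or members with 2 or more UMIs of Tafa4 (-0.48).

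Unc13c differed by -0.73 more in members (edgeR adjusted p = 0.0029), with 324 ± 75.7 and 285 ± 62.3 CPM in other neurons, and the call was lost without FL1, without FR3 (highest edgeR adjusted p 0.12) and without ML1 and FL1 (0.075). Unc5d was at 390 ± 101 CPM in left and 244 ± 60.8 CPM in right members and at 231 ± 29.6 and 220 ± 18.0 CPM in other neurons (difference of log2 differences -0.57, edgeR adjusted p = 0.044). Robo1, a receptor for Slit proteins, was at 227 ± 58.5 and 363 ± 81.2 CPM in members and 232 ± 17.4 and 248 ± 33.3 CPM in other neurons (0.57, edgeR adjusted p = 0.048). Unc5d lost its call without ML3, MR2, MR3, FL1, FL2, FR1 or FR3 (highest edgeR adjusted p 0.14), and Robo1 without ML3, MR3, FL1, FL2, FR1, FR2 or FR3 (highest 0.34). For the whole cluster the same term called 34 of 13162 genes (0.258%), with Opcml, Unc5d and Robo1 among them. For members inside the cluster it called 1 of 12925 genes (0.00774%), Opcml.

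By labelled sex no gene was called in members (0.0%, edgeR, 415 of 5239 at an unadjusted p under 0.05, none by DESeq2 or limma-voom). The smallest p was that of Tubb5, a beta-tubulin, at 86.0 to 136.6 CPM in pools labelled male and 156 to 266 CPM in those labelled female, without overlap (log2 difference, female over male, 0.77, edgeR adjusted p = 0.115). Pools of the labelled sexes were fully separate for 20 genes (0.382%). Lama2, a laminin subunit (log2 difference -0.73), and Maea, a subunit of a ubiquitin ligase (1.43), followed, both at an edgeR adjusted p of 0.13. The values of Tubb5, Lama2 and Maea include ML1 and FL1.

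Without ML1 and FL1 7 genes were called by sex. They included Kdm5d and the entry Ddx3, both near 0 in female-labelled pools. Frmpd1, a scaffold protein with a PDZ domain, was at 1514 ± 252 CPM in the 5 male-labelled and 993 ± 128 CPM in the 5 female-labelled pools (log2 difference -0.62, edgeR adjusted p = 0.023). With all 12 pools the log2 difference was -0.50 (edgeR adjusted p = 0.22). In the Tafa4 Esr1 Crhr2 cluster with all pools it was at 1689 ± 192 and 1268 ± 167 CPM (log2 difference -0.42, edgeR adjusted p = 0.00014), 1 of 23 genes called there by sex (0.317%, 6 by DESeq2). Members inside the cluster had 10 of 3007 genes called by sex (0.333%). Rgs6, a regulator of G protein signalling, was another, at 1924 ± 196 and 1533 ± 78.4 CPM (log2 difference -0.34, edgeR adjusted p = 0.00019).

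Piezo2 was the other named gene called by sex without ML1 and FL1, at 76.0 ± 50.3 CPM in pools labelled male and 176 ± 33.6 CPM in those labelled female (log2 difference 1.10, n = 5 each, edgeR adjusted p = 0.023). With all 12 pools the log2 difference was 0.59 and was not called (edgeR adjusted p = 0.60). In the Tafa4 Esr1 Crhr2 cluster it went the other way and was not called (log2 difference -0.54, edgeR adjusted p = 0.54). Piezo2 was 261 CPM in members outside and 29.8 CPM in those inside the cluster, and female-labelled pools had 64.3% of their members inside against 70.4%, as given above. The part of this makeup in the difference was not tested.

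No gene was called for an interaction of side and labelled sex (0.0%, edgeR, 390 of 5239 at an unadjusted p under 0.05, 1 by DESeq2 and 0 by limma-voom). Ywhag, a 14-3-3 protein, had the smallest p. It was at 443, 487 and 449 CPM in ML1 to ML3, at 872, 939 and 722 CPM in FL1 to FL3, at 658, 441 and 626 CPM in MR1 to MR3 and at 475, 479 and 415 CPM in FR1 to FR3 (interaction -1.17 on the log2 scale, edgeR adjusted p = 0.058). The 3 female-labelled left pools were the highest of the 12, but FL1 among them had Y-linked genes at the level of male-labelled pools. The values of Ywhag, Wbp2 and Ncdn given here include ML1 and FL1. Wbp2, a transcriptional coactivator (-2.41, edgeR adjusted p = 0.058), and Ncdn, neurochondrin (-1.92, edgeR adjusted p = 0.11), followed. Without ML1 and FL1 3 genes were called.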

How the data were processed

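Single-nucleus RNA was measured in 12 pools of nodose ganglia, read from pool names in the deposited nucleus table; the deposited samples are 8 sublibraries that each hold all pools. The authors deposited raw UMI counts per nucleus and gene; the submitters' processing notes name R 4.3.2, Seurat 4.1.3 and the build mRatBN7.2, and the aligner is not given in the sources used here. Nuclei were left out below 300 detected genes or above 5% mitochondrial UMIs. Scrublet in scanpy 1.11.5 called 2 doublets (0.00544%), so doublets were in effect not removed. Clusters came from 3000 variable genes, 30 principal components and the Leiden algorithm at resolution 1. CPM are the UMIs of a gene summed over a pool's nuclei and scaled to their total.

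Sums per pool were tested with edgeR 4.0.16 (TMM, filterByExpr, quasi-likelihood F test, side and labelled sex additive) in R 4.3.3; DESeq2 1.42.0 and limma 3.58.1 were alternatives. On simulated counts of 4993 genes for the side comparison, 84 of 92 genes changed 2-fold and 93 of 93 changed 4-fold were recovered, with 11 unchanged genes called. The simulated spread was set by a gene's level alone, and pools were drawn independently, without rats shared between sides. These numbers therefore need not hold for the real data. Shares and depths were tested by exact permutation of pool labels within the other factor (400 relabellings). P-values measure the spread between pools, and left and right pools of a sex share rats.

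The genes named against other neurons are the 20 highest and 10 lowest log2 ratios (pseudocount 5 CPM, mean of at least 20 CPM, same direction in all pools, without the 7 genes of the rule); for tests they are up to 10 called genes of smallest p, or 3 where fewer than 3 were called, and genes of the lists. Eda, Bmper, Kcnh8 and other genes called beyond these, and Frmpd1, Rgs6, Piezo2 and the genes of the Tafa4 Esr1 Crhr2 cluster, were chosen after their values were seen. Members and lists were chosen with earlier results of these data known. Listed genes that did not match by symbol were not used here, and a few listed genes are not reported here.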

Additional observations from a re-analysis of the deposited data

Results flagged for a closer look

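The side difference of 4 genes in members differed from that in other neurons by the class-by-side test (edgeR, adjusted p under 0.05). On the log2 scale the difference of the side differences, members minus other neurons, was -0.83 for Opcml, -0.73 for Unc13c, -0.57 for Unc5d and 0.57 for Robo1. Neither DESeq2 nor limma-voom called any of them. Lama2 had 1 pool far from the rest of its labelled sex in members: FR2 was at 253 CPM, and the other 5 female-labelled pools at 106 to 154 CPM. This was the only such pool among 53 groups of values examined, where chance gives about 1 in 20.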

How the results depend on the processing

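Values are given in the order in which the results appear in the report, and differences are right minus left or female minus male. For the share of members among all nuclei, by side, the difference was -2.42 percentage points without the exclusion (exact permutation p = 0.015), -1.08 at 3000 UMIs (p = 0.03) and 0.0313 for the Tafa4 Esr1 Crhr2 cluster. Without the exclusion the set held 2552 nuclei, of which 1767 are no members. For the share of members among neurons, by side, it was -2.24 without the exclusion (exact permutation p = 0.025) and 0.795 for the cluster. The sex difference, near 0 in both (-0.00977 and 0.00468), changed sign for all nuclei with at least 3 (0.0951) or 1 (0.0547) further genes, without the exclusion (1.74, exact permutation p = 0.04) and without the 5% of nuclei with the highest doublet score (0.0222). For the share of members among neurons, by labelled sex, it changed sign with at least 2 Tafa4 UMIs (-0.119), without ML1 and FL1 (-0.0543), at 1500 (-0.396) and 3000 UMIs (-0.0869), for the cluster (-1.08) and for members inside it (-0.188). The depth difference by sex was 735 UMIs with at least 3 further genes (exact permutation p = 0.095).

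Genes higher in members numbered 230 for members inside the cluster, 9 outside and 314 for the cluster; genes lower numbered 877, 29 and 1128, and 425 with at least 3 further genes. Kcnk13 was at -0.0098 outside. Side calls were 21 with at least 2 Tafa4 UMIs, 6 with 3 further genes, 23 without the exclusion, 6 without likely doublets, 3 without ML1 and FL1, 35 without the low-count filter, 61 for the cluster, 27 for members in it, and 47 for the cluster both without ML1 and FL1 and by DESeq2. In the same terms sex calls were 30 with at least 2 Tafa4 UMIs, 3 without the exclusion, 7 without ML1 and FL1, 47 without the filter, 23 for the cluster, 10 for members in it, 46 for the cluster without ML1 and FL1 and 6 by DESeq2. Interaction calls were 1 with 3 further genes, without likely doublets, by DESeq2 and for the cluster, 3 without ML1 and FL1 and 11 without the filter. Class-by-side calls were 2 with at least 2 Tafa4 UMIs, 22 with 3 further genes, 7 without likely doublets, 10 without the filter, 0 by DESeq2 and limma-voom, 34 for the cluster, 1 for members in it, 16 for the cluster without ML1 and FL1 and 19 by DESeq2. The causes were not tested.

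Leaving out 1 pool at a time gave share differences of -0.630 to -0.347 (all nuclei, side), -0.197 to 0.122 (all nuclei, sex), -0.554 to -0.243 (neurons, side) and -0.192 to 0.166 (neurons, sex). Depth differences were -545.5 to -153.9 UMIs by side and 780.9 to 1047 by sex. Calls ran from 2 to 29 by side, 0 to 18 by sex, 0 to 5 for the interaction and 1 to 21 for class by side. Of the values of single named genes under all alternatives, 356 kept their call, 172 lost and 20 gained one.

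No pairing of the pools by number was visible: deviations of same-numbered left and right pools correlated at -0.052 to 0.081, and 6 of 12 pools were closest to their own number. This check cannot exclude a pairing, since members per pool are few and ML1 and FL1 go against their labels. With pool number as replicate block 13 genes were called by side, and the exact permutation p was 0.0625 for the share of members among all nuclei, by side, and 0.09375 for the share of members among neurons, by side. The precision is limited by 36 to 128 members per pool.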
